A study of Homo sapiens with 8 samples.

Results

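The 17-beta-hydroxysteroid dehydrogenases are a group of enzymes named for the oxidation or reduction of the hydroxyl or keto group at position 17 of steroid hormones. This account covers 7 of their genes, HSD17B1, HSD17B2, HSD17B4, HSD17B6, HSD17B8, HSD17B10 and HSD17B12. They were taken as every probe set whose only annotated gene symbol is 1 of these 7 names. That gave 8 of the 22215 non-control probe sets on the array, 2 for HSD17B6 and 1 for each other gene. The group was put together because HSD17B2 read higher and HSD17B8 lower in clones with a CD24-directed shRNA, so its members were chosen by the measured contrast of those clones with their controls, which is given as a description with no test. That rule had no threshold. The rule used neither the antibody difference nor the difference between cell lines. The untreated HT29 array is a control of the clones and enters both of those comparisons, so they are not independent of the choice.

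The data are 8 Affymetrix arrays, each of RNA from 1 cell sample, read as MAS5 signals on a linear intensity scale. Both cell lines are established human ones, HT29 from colorectal and Colo357 from pancreatic cancer. Each line had 1 untreated array and 1 array after 72 h with SWA11, a monoclonal antibody against the cell-surface glycoprotein CD24, at a dilution of 1 to 40. The other 4 arrays came from HT29-derived clones: 1 clone with a vector for a GFP-directed shRNA, 1 clone with a vector for a CD24-directed shRNA, and 2 clones with 2 such vectors. Each of these is a single clone. The antibody arrays are set against untreated cells, not against an unrelated antibody. The labels do not say that samples came from separate cultures, and neither line had 2 arrays of the same treatment. The p-values for the antibody and the lines therefore rest on how far the antibody difference disagreed between the 2 lines, moderated over all genes. They do not measure the spread between cultures.

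Most of these enzymes are short-chain dehydrogenases that use nicotinamide cofactors. Some act on sex steroids, where oxidation at position 17 turns estradiol and testosterone into less active ketones and reduction does the opposite. HSD17B2 is the oxidative enzyme of normal intestinal surface epithelium, and HSD17B1 is the reductive enzyme that makes estradiol from estrone, best known from placenta and ovary. Other members carry the family name but work mainly on fatty acids: HSD17B4 in peroxisomes, HSD17B8 and HSD17B10 in mitochondria, and HSD17B12 in chain elongation at the endoplasmic reticulum.

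On GRCh38.p14 the RefSeq genes lie on different chromosomes: HSD17B2 at chr16:82035253-82098534, HSD17B8 at chr6:33204655-33206831, HSD17B1 at chr17:42552923-42555214, HSD17B6 at chr12:56763324-56787790, HSD17B4 at chr5:119452497-119542332, HSD17B10 at chrX:53431258-53434376 and HSD17B12 at chr11:43556721-43856615. The RefSeq promoter table of that build matched 3 of the 7 genes. Their sequences up to the annotated start are shown because the 3 genes differed in direction in the CD24 shRNA clones: HSD17B8 and HSD17B4 read lower and HSD17B10 higher. Each runs 5′ to 3′ on the strand of its gene, and capitals mark CCAAT on either strand (ATTGG on the opposite one). The HSD17B8 window, chr6:33204438-33204654 on the plus strand, leaves out 33 bases that lie within the neighbouring gene SLC39A7. The HSD17B4 window is chr5:119452247-119452496, plus strand, and the HSD17B10 window is chrX:53434377-53434626, minus strand.
HSD17B8: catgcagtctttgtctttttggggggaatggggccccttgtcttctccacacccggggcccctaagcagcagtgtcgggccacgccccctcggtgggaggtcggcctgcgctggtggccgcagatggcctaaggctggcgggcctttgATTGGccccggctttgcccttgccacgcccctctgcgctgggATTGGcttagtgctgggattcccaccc
HSD17B4: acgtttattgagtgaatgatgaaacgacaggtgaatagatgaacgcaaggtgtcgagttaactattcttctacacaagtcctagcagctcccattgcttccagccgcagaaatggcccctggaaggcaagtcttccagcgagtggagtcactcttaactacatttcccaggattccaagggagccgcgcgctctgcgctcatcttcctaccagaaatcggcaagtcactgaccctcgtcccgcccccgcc
HSD17B10: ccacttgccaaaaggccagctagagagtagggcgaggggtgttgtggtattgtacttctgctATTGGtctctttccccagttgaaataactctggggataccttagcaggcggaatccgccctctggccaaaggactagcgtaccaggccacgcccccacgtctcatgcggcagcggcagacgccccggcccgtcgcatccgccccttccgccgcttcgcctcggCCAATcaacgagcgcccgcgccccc

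CCAAT occurred 2 times in the HSD17B8 window, 2 times in that of HSD17B10 and 0 times in that of HSD17B4. Over 34796 distinct RefSeq promoters, 29.4% held it in the same 217 bases and 32.0% in 250 bases. GGGCGG, searched on both strands and sharing no bases with CCAAT, occurred 0 times for HSD17B8, 1 time for HSD17B4 and 2 times for HSD17B10, and 42.6% of 250-base windows held it (41.1% of 217-base windows). The windows held 11, 14 and 21 CpG dinucleotides for HSD17B8, HSD17B4 and HSD17B10, against a median of 9 over 217 bases and 11 over 250 bases. So the gene that read lowest in the clones and the one that read higher both hold CCAAT. The GGGCGG and CpG counts were highest for HSD17B10, the one that read higher. With only 3 genes, the part of any of these counts in the direction was not tested.

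The brightest CD24 probe set read 6425.1 in untreated HT29 and 7362.5 in the GFP clone, and 171.7 to 595.5 in the 3 CD24 shRNA clones, so the labels of the clones held. Of 7 duct epithelium markers 4 were above the median in each untreated line: keratin 7 read 5468.1 and 7502.6 in Colo357 and 38.8 to 193.3 on the HT29 arrays, while SOX9 read 394.4 and 396.7 in Colo357 and 781.6 to 1362.4 in HT29. Of 8 colon epithelium markers 4 lay above the median intensity in each untreated line. The intestinal transcription factor CDX2 read 1.8 to 7 on the 6 HT29 arrays and 17.1 and 24.3 in Colo357, all below the median intensity. The summed colon markers were 7035 and 10208.2 in the 2 control arrays, 6294.5 to 7302.2 in the CD24 shRNA clones and 15187.4 in antibody-treated HT29. In Colo357 they were 3540.9 and 4684.3. Single markers went opposite ways: galectin 4 (LGALS4) read 4581.5 in untreated HT29, 584.5 in the GFP clone and 32.5 to 682.2 in the CD24 shRNA clones, and keratin 20 (KRT20) 1117.1, 2761.4 and 4016 to 4799.8. The part of these markers in the results was not tested. The summed signal of 3 acinar markers was at most 34.5 and that of 4 endothelial markers at most 128.3 on any array. The leukocyte list summed to 3787.1 to 5514 in HT29, nearly all from lysozyme (LYZ, 3751.2 to 5402.3), while PTPRC, which defines leukocytes, read at most 24.2. Added poly(A) RNA controls moved with both treatments: the dap 3′ control read 274.8 to 277.1 in untreated HT29, untreated Colo357 and the GFP clone, and 405.5 to 922.9 on the other 5 arrays. The first clone with 2 vectors also stood apart, with an actin 3′ to 5′ signal ratio of 1.77 (1.06 to 1.17 elsewhere) and an 18S ribosomal RNA control at 434.8 (14.7 to 48 elsewhere). The part of the spike controls in the results below was not tested and cannot be told apart from the antibody or the CD24 shRNA. For the clones, differences that drop below 2-fold without the first clone with 2 vectors are given with their value.

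HSD17B2, the enzyme that oxidises estradiol to estrone, read 3798.4 in the 1-vector CD24 shRNA clone and 2075.5 and 1646 in the clones with 2 vectors. It read 265.2 in untreated HT29 and 674.7 in the GFP shRNA clone. All 3 CD24 shRNA clones therefore lay above both controls, and the 1-vector clone was the highest of all 8 arrays. On the scale of log2(intensity + 10), used for every difference here, the mean was 11.20 ± 0.62 (SD, n = 3) over the clones against 8.76 ± 0.93 (SD, n = 2) over the controls. The difference of 2.44 is 5.44-fold. The controls themselves differed by 1.31: against the GFP clone alone the difference was 1.79, and against untreated HT29 alone it was 3.10.

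HSD17B8, which as a mitochondrial ketoacyl reductase subunit takes part in fatty acid synthesis and can also oxidise estradiol, showed the opposite pattern. Its single probe set read 24.1 in the 1-vector clone, 21.7 and 5.8 in the clones with 2 vectors, 204.6 in untreated HT29 and 227.2 in the GFP clone. The 3 CD24 shRNA clones were below the median of all intensities, 45, and every other array was above it. The CD24 shRNA clones averaged 4.69 ± 0.61 (SD, n = 3) on the log2 scale where the controls averaged 7.82 ± 0.10 (SD, n = 2), a difference of -3.13, or 8.76-fold. The 2 controls differed by only 0.14, so here the GFP clone and untreated HT29 gave nearly the same difference, -3.20 and -3.06. The size depends on the constant added to dim values, -3.79 with 1 and -1.99 with 50, against 10 here.

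**Figure D1:**
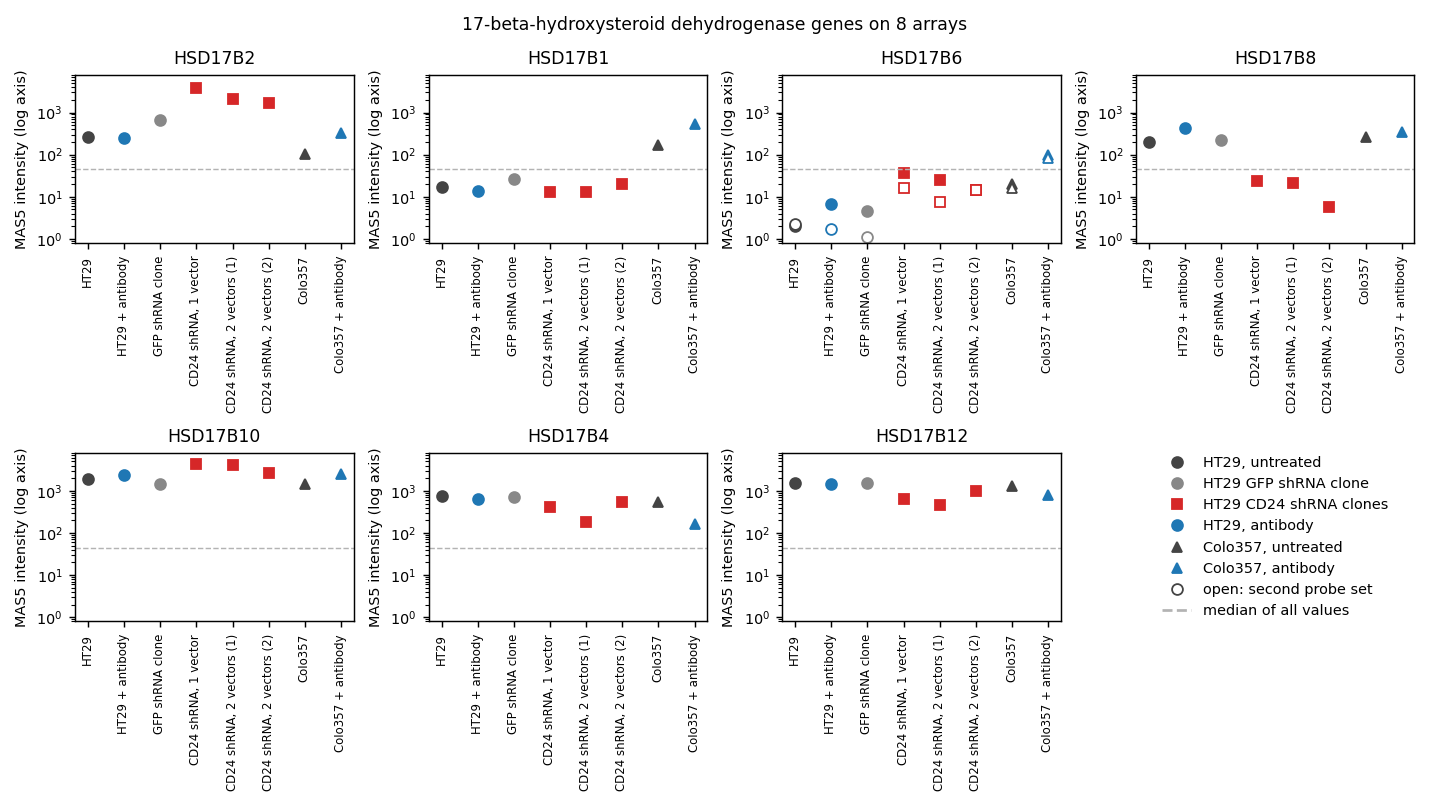
Intensity of the 7 genes (log axis) on each of the 8 arrays, 1 point per array; open symbols are the second HSD17B6 probe set and the dashed line is the median of all non-control values, 45. The 3 CD24 shRNA clones (red squares) are the highest arrays for HSD17B2, from 1646 to 3798.4, and the lowest for HSD17B8, from 5.8 to 24.1; HSD17B1 passes the dashed line only in Colo357 (triangles).

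The other members above the filter differed less in the clones. HSD17B10, a mitochondrial enzyme of isoleucine breakdown that is also a subunit of mitochondrial RNase P, read 4431.9, 4041.8 and 2676.3 in the CD24 shRNA clones, against 1934.4 in untreated HT29 and 1462.6 in the GFP clone, a log2 difference of 1.11. HSD17B12, the ketoacyl-CoA reductase of fatty acid elongation, read 647.1, 455.4 and 1006.6 in the clones and 1553.9 and 1536.3 in the controls, a difference of -1.20. HSD17B4, the peroxisomal bifunctional enzyme of beta-oxidation, read 410.9, 179.2 and 547.6 in the clones and 738.5 and 725.8 in the controls, a difference of -1.07. For these 3 genes the clones and the controls did not overlap, but the clones were spread widely: the first 2-vector clone was lowest for HSD17B12 and HSD17B4, and without it their differences were -0.93 and -0.62. The second 2-vector clone was nearest to the controls for all 3.

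HSD17B6, an enzyme that oxidises 3-alpha-hydroxysteroids and retinol, was dim. Its brighter probe set read 14.4 to 37.2 in the CD24 shRNA clones and 2 and 4.5 in the controls, all below the median intensity. The second probe set read 7.4 to 16.4 and 1.1 to 2.3. Both probe sets put the clones above the controls, at log2 differences of 1.37 and 0.94 that rest on values near the bottom of the scale. The first was 2.60 with 1 added, more than HSD17B2 at 2.47, and 0.49 with 50. HSD17B1 read 12.7 to 20.3 in the clones and 16.7 and 26.4 in the controls, with overlap.

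In all, 5 of the 7 genes passed the filter on dim genes in these 5 arrays (mean above the median of all values), and HSD17B1 and HSD17B6 did not. HSD17B8 passed through its controls alone. All 5 lay wholly on 1 side of both controls (2 higher, 3 lower) and all 5 were at 2-fold or more. Over all 6701 genes above the filter, 40% lay on 1 side of both controls (20.2% higher, 19.8% lower) and 24% were at 2-fold or more (7.21% higher, 16.8% lower). Of the genes at 2-fold, 30.0% were higher, and quantile normalization raised that share to 45.2% and the median gene from 0.05 to 0.18. These clones were the basis of the choice, so nothing is read from the count of members.

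**Figure D2:**
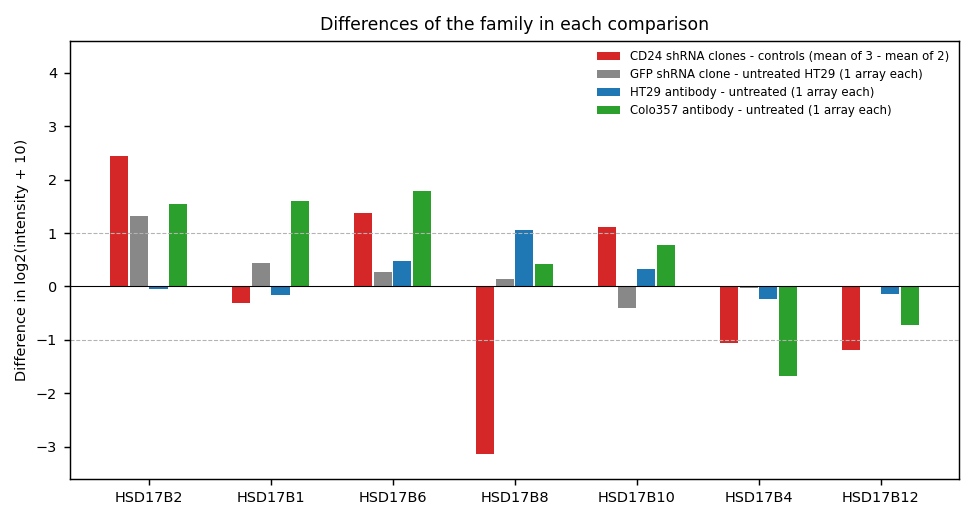
Difference in log2(intensity + 10) of the 7 genes in 4 comparisons; bars have no error bars because 3 of the comparisons are 1 array against 1 array, and dashed lines mark 2-fold. HSD17B2 is at 2.44 in the CD24 shRNA clones and 1.31 in the GFP clone, HSD17B8 at -3.13 and 0.14, and HSD17B4 is lowest in antibody-treated Colo357 at -1.67.

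The GFP clone against untreated HT29 shows how far the family differed in a clone without CD24 shRNA, 1 array each. HSD17B2 was the only 1 of the 5 genes above the filter at 2-fold or more, with 21.8% of all genes at that size (14.8% higher, 7.04% lower). HSD17B8, HSD17B4 and HSD17B12 differed by 0.14, -0.02 and -0.02, and HSD17B10 by -0.40. The HSD17B2 level in the GFP clone thus lay between untreated HT29 and the CD24 shRNA clones, whereas the HSD17B8 level did not.

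Genes beside HSD17B8 on chromosome 6 did not share its low signal. SLC39A7, a zinc transporter that ends just before HSD17B8, read 289.3, 153.5 and 164.2 in the CD24 shRNA clones and 242.3 and 264.4 in the controls. RING1, a Polycomb subunit on the other side, read 543, 555.9 and 493.5 in the clones and 314.9 and 562.7 in the controls. RXRB, COL11A2, VPS52 and RPS18 differed by -0.19 to 0.17. All 6 of these neighbours overlapped between clones and controls, and their differences ran from -0.37 to 0.32. The 3 nearest genes with a value on each side of HSD17B2 on chromosome 16 lie farther away. PLCG2, BCO1, GCSH, HSBP1, MLYCD and OSGIN1 differed by -1.19 (GCSH, a subunit of the glycine cleavage system) to 0.79 (OSGIN1). GCSH was also lower in the GFP clone, by -1.01. PLCG2 and BCO1 were below the filter and overlapped between clones and controls, as did HSBP1. The clones lay below both controls for GCSH and above both for MLYCD (0.42) and OSGIN1. Of all genes above the filter, 40% lay on 1 side of both controls. None of these neighbours approached the 2.44 of HSD17B2.

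**Figure D3:**
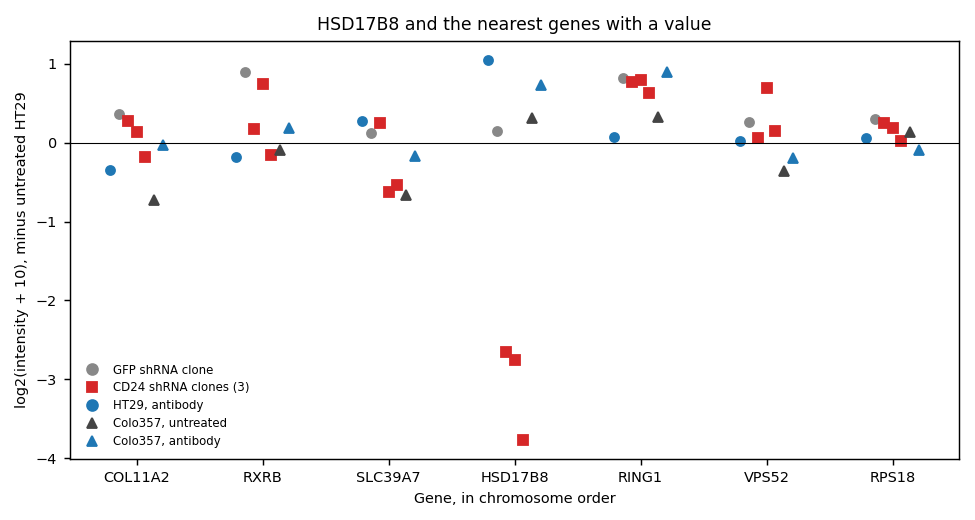
log2(intensity + 10) of HSD17B8 and its 3 nearest genes with a value on each side, in chromosome order, as the difference from untreated HT29; each point is 1 array. The 3 CD24 shRNA clones (red squares) drop at HSD17B8, where they read 5.8 to 24.1 against 204.6 in untreated HT29, and lie within 1 log2 unit of untreated HT29 at the 6 neighbours.

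The genes whose levels over the 8 arrays most resembled these 2 were listed as a description. The arrays share lines and clones, so they are not independent. For HSD17B2 they were RTL8A, PGPEP1, SSR2 (a subunit of the translocon-associated complex), RELA (the NF-kB subunit p65) and RBM4B, with Pearson r of 0.98 to 0.99 over 8 arrays among 6796 genes. RELA read 1362.5 to 1719.5 in the CD24 shRNA clones and 735.3 to 1158.4 elsewhere. For HSD17B8 they were LACTB2, AGMAT, METTL18, SDHAF3 (an assembly factor of succinate dehydrogenase) and BST2, at 0.94 to 0.97. LACTB2 read 59.1 to 73.7 in the CD24 shRNA clones and 242.3 to 398.2 elsewhere. AGMAT and BST2 differed from HSD17B8 in the GFP clone, where they read 98.5 and 88.2 against 496.3 and 674.5 in untreated HT29.

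The antibody comparison asked whether cells exposed to anti-CD24 differ from untreated cells of the same line. In Colo357, HSD17B1 read 533.4 after the antibody and 169.2 before, HSD17B2 322.4 and 103.6, and the brighter HSD17B6 probe set 95.7 and 20.5. HSD17B4 read 161 after and 535.8 before. These 4 of 7 genes were at 2-fold or more, against 23.4% of all 7122 genes (10.6% higher, 12.8% lower). HSD17B6 passed the filter through the treated array alone, so its place in that count was not independent of its difference. HSD17B12 read 788.6 and 1306.6, HSD17B10 2464.5 and 1437.3, and HSD17B8 347 and 255.8, each under 2-fold. The second HSD17B6 probe set gave 83.4 and 16.2, so both probe sets of that gene were higher after the antibody.

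In HT29 only HSD17B8 reached 2-fold, at 435.5 after the antibody and 204.6 before, among 5 genes above the filter and with 12.4% of all 6583 genes at that size (5.01% higher, 7.4% lower). HSD17B2 read 255.4 and 265.2, HSD17B4 624.1 and 738.5, HSD17B12 1417 and 1553.9 and HSD17B10 2425.6 and 1934.4. HSD17B1 and HSD17B6 stayed below the median intensity in both HT29 arrays. HSD17B8 was thus higher, not lower, on the antibody-treated array of HT29, and the untreated HT29 array serves as control in this comparison and in that of the clones. With 50 added in place of 10, HSD17B8 no longer reached 2-fold.

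Both lines were then fitted together with limma on the 4 arrays, with the line as a term. Of the 6 members above the filter 0 passed adjusted p 0.05, where 3.27% of 6877 genes did (1% higher, 2.27% lower), and 1 of the 6 had an unadjusted p under 0.05, as did 1572 of all genes. That gene was HSD17B4, lower in both lines (log2 difference -0.96 ± 0.39, SE; limma adjusted p = 0.186). HSD17B8 was higher in both lines (0.74 ± 0.34, adjusted p = 0.225), as was HSD17B10 (0.55 ± 0.33, 0.347), and HSD17B12 was lower in both (-0.43 ± 0.34, 0.473). HSD17B1 (0.72 ± 0.43, limma adjusted p = 0.341) and HSD17B2 (0.75 ± 0.41, 0.305) were near 0 in HT29, and the sign of HSD17B2 there turned under quantile normalization (0.09). The fit leaves 1 residual degree of freedom, and 0 of all genes passed under quantile normalization or without the filter.

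**Figure D4:**
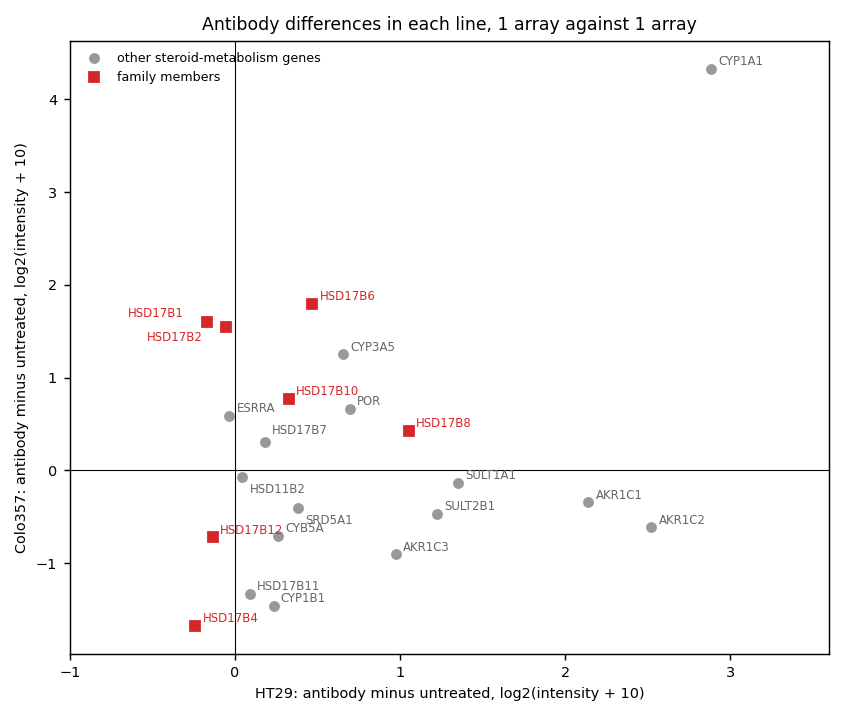
Antibody minus untreated difference in log2(intensity + 10), HT29 on the x axis and Colo357 on the y axis, 1 array against 1 array each, for the 7 family genes (red squares) and the 15 other steroid-metabolism genes above the filter (grey). HSD17B1 and HSD17B2 lie near 0 for HT29 and at 1.60 and 1.55 for Colo357; CYP1A1 is highest in both lines and AKR1C1 and AKR1C2 are high in HT29 only on this plot.

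The same fit compared the lines. HSD17B1, the estradiol-forming enzyme, was the 1 member that passed, where 19.4% of genes passed (10.9% higher, 8.49% lower). It was higher in Colo357 than in HT29 by 3.63 ± 0.43 (SE, n = 2 arrays per line, limma adjusted p = 0.000184). The 2 arrays of a line were 1 untreated and 1 treated, not replicates. Its line difference was 2.75 between the untreated arrays and 4.51 between the treated ones. HSD17B1 read 169.2 and 533.4 in Colo357 and 16.7 and 13.8 in HT29, with no overlap, and 12.7 to 26.4 in the 4 clones. It passed the filter through Colo357 alone, and the size was set in part by the added constant, at 4.22 with 1 and 2.45 with 50. Of these 7 genes, HSD17B1 was the one above the median intensity on both Colo357 arrays and on no HT29 array. The gene overlaps an antisense transcript, HSD17B1-AS1, and lies beside a pseudogene, HSD17B1P1, so its signal may not be of HSD17B1 alone. HSD17B4 was at -1.17 ± 0.39 (SE; limma adjusted p = 0.0638), which did not pass, and with 50 added in place of 10 it did (-1.05, adjusted p = 0.0387).

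No other member passed for the lines in this fit. HSD17B2 differed by -0.48 ± 0.41 (limma adjusted p = 0.464) and changed order with treatment: 103.6 in untreated Colo357 against 265.2 in untreated HT29, and 322.4 against 255.4 after the antibody. HSD17B8 differed by -0.01 ± 0.34 (0.995), HSD17B10 by -0.20 ± 0.33 (0.724) and HSD17B12 by -0.54 ± 0.34 (0.293). HSD17B6 was below the filter, but both of its probe sets read higher in Colo357 (16.2 to 95.7) than in untreated or treated HT29 (1.7 to 6.6).

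Ordered by level, HSD17B2 ran from untreated Colo357 (103.6) through the 3 arrays at 255.4 to 322.4 (both HT29 arrays and treated Colo357) and the GFP clone (674.7) to the CD24 shRNA clones. HSD17B8 ran from the CD24 shRNA clones (5.8 to 24.1) to the other 5 arrays, 204.6 to 435.5, with treated HT29 highest. HSD17B10 was lowest in untreated Colo357 (1437.3) and the GFP clone (1462.6) and highest in the 1-vector clone, a range of 3.08-fold. HSD17B4 was lowest in treated Colo357 (161) and the first 2-vector clone (179.2), and HSD17B12 in the first 2-vector clone (455.4), the 1-vector clone (647.1) and treated Colo357 (788.6). HSD17B1 was at 12.7 to 26.4 on the 6 HT29 arrays and at 169.2 and 533.4 in Colo357. Only the 2-vector clones form a replicated group, so neighbours in these orders have no spread of their own.

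Of the other enzymes of the family, 5 of 6 listed genes had a value and 3 passed the filter. HSD17B11, which acts on androgens and sits on lipid droplets, read 136, 53.1 and 224.6 in the CD24 shRNA clones, 414 in untreated HT29 and 529 in the GFP clone, and 152.3 after and 397.8 before the antibody in Colo357. AKR1C3, the aldo-keto reductase that makes testosterone, read 1859.6 in untreated HT29, 338.7 in the GFP clone and 197.6 to 863.1 in the CD24 shRNA clones, so its low signal was shared by the GFP clone. Its difference from both controls was -1.10, and -0.67 without the first 2-vector clone. HSD17B7, an enzyme of cholesterol synthesis, stayed between 284.6 and 485.9 on all 8 arrays, but its probe set may also read a pseudogene copy. HSD17B3 and HSD17B14 read at most 54.6. None of the 3 above the filter passed limma for the antibody or for the lines.

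Sex steroid metabolism and receptor genes had 32 of 36 listed genes measured and 12 above the filter on the 4 antibody arrays. CYP1A1, an estrogen-hydroxylating cytochrome and target of the aryl hydrocarbon receptor, was the 1 gene that rose with the antibody in limma (3.61 ± 0.40, SE; adjusted p = 0.0111). It read 682.8 after and 84 before in HT29, and 207.6 after and 0.8 before in Colo357. With so dim a value the size was set in part by the constant, at 4.93 with 1 and 2.40 with 50. Its untreated arrays alone averaged below the filter, so its entry into this test was not independent of its rise. With the filter, 3.27% of all genes passed for the antibody (1% higher, 2.27% lower). No gene on the array passed for the antibody without the filter or under quantile normalization. The list's median was 0.49, with 8 of 12 genes positive, against -0.02 over all genes. In HT29 alone 5 of 12 were at 2-fold or more: CYP1A1, SULT1A1, SULT2B1, AKR1C1 and AKR1C2, all higher, where 5.01% of all genes were. AKR1C1 read 3616 after and 812.1 before. The AKR1C genes are close paralogs and these probe sets can cross-hybridise, so they are not separate observations. In Colo357 AKR1C1 and AKR1C2 differed by -0.35 and -0.61. Of the 11 genes above the filter there, CYP3A5 (1.25) was higher and CYP1B1 (-1.46) lower at 2-fold or more. At that size 10.6% of all genes were higher and 12.8% lower. CYP1A1 was below the filter in Colo357.

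Between the lines, 4 of the 12 genes of this list were higher in Colo357 and 2 lower at limma adjusted p 0.05, where 10.9% of all genes were higher and 8.49% lower. AKR1C1 (2.31 ± 0.51, adjusted p = 0.0101), AKR1C2, CYP1B1 and SULT1A1, an estrogen- and phenol-sulfating enzyme, were higher. CYP1A1 (-2.40 ± 0.40, 0.00192) and CYB5A, the cytochrome that aids androgen synthesis, were lower. The Colo357 arrays of CYP1A1 alone averaged below the filter, so its entry into this test was not independent of its difference. The size was set in part by the constant, at -3.64 with 1 and -1.45 with 50. In the CD24 shRNA clones, SULT2B1, the cholesterol sulfotransferase, was higher by 2-fold or more, at 584.7 to 953.8 against 206.5 and 350.4 in the controls. AKR1C1, AKR1C2 and CYP1B1 were lower by 2-fold or more on average but overlapped the controls. These calls were among 12 genes above the filter, and 7.21% of all genes were higher and 16.8% lower at that size. Against the GFP clone alone AKR1C1 and AKR1C2 differed by 0.21 and 0.20, and CYP1B1 read 216.5 in the second 2-vector clone against 199.9 in untreated HT29 and 970.6 in the GFP clone. The steroid list's median in the clones was -0.32 (5 of 12 positive), against 0.05 over all genes.

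The fatty acid pathways to which the other members belong were described in the same way. For HSD17B8, 6 of 10 genes of mitochondrial fatty acid synthesis had a value and 5 passed the filter in the clones. None of those 5 was at 2-fold, and their median was 0.08. CBR4, which forms the reductase with HSD17B8, read 23.9, 13.3 and 33.7 in the CD24 shRNA clones and 46.1 and 90.5 in the controls, around and below the median intensity. NDUFAB1, the mitochondrial acyl carrier protein, read 3377.1 to 4510.4 in the clones and 5633.4 and 2338 in the controls. For HSD17B12, 4 elongation genes passed the filter in the clones and 2 were at 2-fold or more, both lower (16.8% of all genes were): ELOVL6 at 42.8 to 110 against 175.7 and 215.6, and the dehydratase HACD2 at 67.6 to 370.1 against 676.2 and 347.8, with overlap.

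For HSD17B4, 11 of 15 measured genes of peroxisomal beta-oxidation passed the filter in the clones, with a median of 0.39. Of these, 1 was higher at 2-fold (ECI2, an enoyl-CoA isomerase) and 1 lower (ABCD3, a peroxisomal fatty acid transporter). Over all genes, 7.21% were higher and 16.8% lower at that size. ECI2 overlapped: it read 394.8 to 461.5 in the CD24 shRNA clones but 566.8 in the GFP clone and 36.9 in untreated HT29, so its difference was -0.38 against the GFP clone alone. ABCD3 read 97.2, 58 and 344.1 in the clones, 715.1 and 599.1 in the controls, and 241.2 after and 590.4 before the antibody in Colo357. For HSD17B10, 15 of 17 measured genes of mitochondrial beta-oxidation, isoleucine breakdown and RNase P passed, with a median of 0.33. Against the same shares of all genes, 1 was at 2-fold in each direction, ECHS1 (1.01) and ACADM (-1.41). Without the first 2-vector clone these were 0.95 and -0.69, both under 2-fold, and ACADM overlapped, at 89.4, 13.8 and 103.9 in the clones and 99.6 and 257.2 in the controls. No gene of these 4 lists passed limma for the antibody over both lines. In Colo357 after the antibody, 10.6% of all genes were higher by 2-fold or more and 12.8% lower. Of 15 genes above the filter in the mitochondrial beta-oxidation list, HADH, DECR1 and BCKDHB were lower at that size. Of 11 peroxisomal genes, ABCD3 and PECR were lower and PEX5, the peroxisomal import receptor, was higher. Of 8 elongation genes, ELOVL6 and FADS2 were lower and ELOVL4 was higher. In HT29 the 1 gene of these lists at 2-fold was PHYH, of 11 peroxisomal genes. It was higher (80.9 to 239.8), as were 5.01% of all genes. Between the lines, elongase ELOVL5 was higher in Colo357 by 6.39 ± 0.35 (limma adjusted p = 1.35e-06), at 1392.1 and 1068.7 against 2.6 and 7.1 in HT29, and the desaturase FADS2 by 2.86 ± 0.43 (0.000951). Both passed the filter through Colo357 alone: ELOVL5 was at 7.82 with 1 added and 4.53 with 50, and FADS2 at 1.74 with 50 and below the filter with 1. The other ELOVL5 probe sets were dim in both lines, at 4 to 28.1 in Colo357 and 7.6 to 16 in HT29. They showed no difference near 6.39. ECI2, PECR, PEX7 and ACADM were also higher in Colo357, and HADH and ACAA2 lower. Over all genes, 10.9% passed as higher in Colo357 and 8.49% as lower.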

How the data were processed

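Transcript levels in 8 cell samples were measured on Affymetrix human arrays. The authors deposited MAS5 intensities, on a linear scale, per the submitters' processing notes. The MAS5 version and target are not given in the sources here. Each array's mean after trimming 2% from each end was 250.1, so no further scaling was applied. Of 22277 probe sets 62 were controls. The platform annotation gave 1 symbol to 19064, several to 1043 and none to 2108, and only the first kind was named, with 19052 symbols updated by Entrez ID.

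Differences are of log2(intensity + 10), which understates changes of dim genes. Each of 11963 genes was represented by its probe set with the highest mean. Genes were compared where their mean over the arrays involved exceeded the median of all values. The antibody and line terms came from 1 limma fit (version 3.58.1, R 4.3.3; lmFit and eBayes) of 4 arrays, two-sided, with Benjamini-Hochberg adjustment over all genes; the fit was tested on simulated data. A moderated SE there rests on 10.0 degrees of freedom, 1 of them residual. Comparisons of 1 array with 1 array and of the CD24 shRNA clones have no test. The number of arrays limits precision. Members, gene lists and comparisons were chosen with earlier results of these data known. The genes named are the members, all genes of the lists past the limma threshold or, without a test, up to 4 of the largest at 2-fold, the 3 nearest genes on each side and the 5 most similar genes. CBR4, NDUFAB1, HSD17B3, HSD17B7, HSD17B14 and the clone values of HSD17B11 and AKR1C3 are given for their roles. Alternatives were another added constant, quantile normalization, mean of probe sets, no _x_at probe sets, no filter, other arrays and single probe sets. Values of list genes without 1 clone or with another constant were added after seeing the data.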

Additional observations from a re-analysis of the deposited data

Results flagged for a closer look

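HSD17B1 and HSD17B2 had antibody differences of opposite sign in the 2 lines, but that of HSD17B2 in HT29 was near 0 and was 0.09 under quantile normalization. HSD17B1 was -0.17 in HT29, where it lay below the median intensity, and 1.60 in Colo357. HSD17B2 was -0.052 in HT29 and 1.55 in Colo357. A limma fit of all 8 arrays, added after seeing the data, takes its spread from the 2 clones with 2 vectors alone and gave each gene the same SE. For HSD17B2 the Colo357 effect exceeded the HT29 effect by 1.60 ± 1.21 (SE, unadjusted p = 0.187), and HSD17B1 was below that fit's filter. Of 6796 genes 0 passed adjusted p 0.05 in this fit and 60 had an unadjusted p under 0.05.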

How the results depend on the processing

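Samples could not be paired by replicate because the labels give the groups no shared replicate numbers. The antibody fit pairs treated and untreated arrays only by line, which is its block. HSD17B2 stayed above the controls in the CD24 shRNA clones under every alternative run, at 1.79 to 3.10 when 1 array was left out. HSD17B8 stayed below, at -3.33 to -2.78 when 1 array was left out, at -3.79 with 1 added, at -1.99 with 50 added and at -2.26 with the GFP clone counted among the clones. No difference of 2-fold or more reversed. Smaller ones changed sign: under quantile normalization HSD17B2 went from -0.05 to 0.09 in antibody-treated HT29, and in the GFP clone HSD17B8 went from 0.14 to -0.07, HSD17B4 from -0.02 to 0.0026 and HSD17B12 from -0.02 to 0.09; HSD17B1 went from -0.32 to 0.04 with all 4 shRNA clones against untreated HT29. Members at 2-fold in the clones fell from 5 to 3 under quantile normalization, 2 with all 4 shRNA clones against untreated HT29 and 3 to 5 when 1 array was left out (3 without the first 2-vector clone, which took HSD17B4 and HSD17B12 below 2-fold, and 3 without the GFP clone, which took HSD17B10 below 2-fold and HSD17B8 below the filter); members wholly on 1 side fell from 5 to 3 with all 4 shRNA clones and were 4 to 5 when 1 array was left out. Leaving out 1 array gave 1298 to 2172 genes at 2-fold and 2963 to 4660 on 1 side, the latter because fewer arrays must agree.

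The antibody count of 225 genes became 141 with 1 added, 0 under quantile normalization (1424 at an unadjusted limma p under 0.05), 78 with the mean of probe sets, 140 without _x_at probe sets, 0 without the filter (1811 unadjusted), 30 over all 8 arrays and 1013 over 11286 single probe sets; no member passed in any gene-level fit. For the lines, 1332 genes became 523 over all 8 arrays and 2517 over single probe sets. HSD17B4 also passed over single probe sets (adjusted p = 0.0297). Members that passed were 2 with 50 added (HSD17B4 joined HSD17B1) and 2 without the filter (HSD17B6 joined it), and 0 over all 8 arrays, where HSD17B1 was below the filter. Its adjusted p ran from 6.31e-07 to 0.00371 where it was tested. HT29 genes at 2-fold after the antibody were 817, 459 with 50 added (0 members) and 1578 without the filter; for the GFP clone they were 1507, and 2476 without the filter. Quantile normalization moved the share that was higher from 40.4% to 53.1% in antibody-treated HT29 and from 67.8% to 53.8% in the GFP clone. In antibody-treated Colo357, HSD17B6 (1.79) left the count of 4 members because it fell below the filter with 1 added, under quantile normalization and with the mean of probe sets, where its difference was 2.17, 1.81 and 1.81. Where not stated, the cause was not tested. Dim probe sets, HSD17B6 and HSD17B1 in HT29, limit what can be said of those genes.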
